A study of Saccharomyces cerevisiae with 4 samples.

Results

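Ergosterol is the main sterol of yeast membranes. It is made from acetyl-CoA by way of mevalonate, farnesyl diphosphate, squalene and lanosterol, and some of the steps need oxygen and haem. Fatty acids start from the same acetyl-CoA, which Acc1 turns into malonyl-CoA for the cytosolic fatty acid synthase, and are then desaturated by Ole1, elongated and activated for use in lipids. Transcript levels of 34 genes of these pathways were followed here, out of 5449 measured yeast genes. They were chosen by name (9 genes from acetyl-CoA to farnesyl diphosphate, 3 to lanosterol, 10 to ergosterol, the electron donor gene NCP1, 2 sterol transcription factors, 2 sterol esterification enzymes and 7 genes of fatty acid synthesis and activation). Each of the 34 was represented by 1 probe set, and all 34 lay above the background level on all 4 arrays.

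Total RNA of exponentially growing cultures was hybridized to Affymetrix arrays, with 2 wild-type arrays and 2 arrays for the strain Sen1ΔN, whose name says that the helicase Sen1 lacks an N-terminal part. Cultures of both strains were started at an optical density of 0.4, grown with shaking at 24 °C in synthetic complete medium with 2% glucose, and harvested untreated at 1.5. The wild type is BY4741, a MATa strain with the alleles his3_delta_1, leu2_delta_0 and, further, met15_delta_0 and ura3_delta_0. Sen1ΔN is a MATα strain with ade2-101, his3-200 and lys2-801, together with trp1-_delta_1, ura3-52 and a sen1 allele written as leu2-_delta_1::sen1-2. The strains are therefore not isogenic by their labels, each is 1 strain grown as 2 independent cultures, and the sen1 allele and the rest of the background cannot be told apart. A lower level per cell and fewer cells with the transcript cannot be told apart either.

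SEN1 itself gave log2 signals of 10.66 and 10.57 in the wild type and 12.01 and 12.17 in Sen1ΔN, and the place of its probes relative to the truncation is not known here. The 11 mating-type genes examined separated the strains as the labels say. Of the auxotrophic markers, HIS3 was high in the wild type (11.93 and 11.94) and low in Sen1ΔN (6.36 and 5.91), and LEU2 was low in the wild type (6.01 and 6.07) and high in Sen1ΔN (12.17 and 12.21), both against a deletion in the label of the high strain. MET17, also called MET15, was low in the wild type (3.83 and 4.48), whose label carries its deletion, and high in Sen1ΔN (12.13 and 12.09). URA3, marked as mutated in both labels, gave 5.08 and 5.21 in the wild type and 7.94 and 8.05 in Sen1ΔN. LYS2 and ADE2 are marked as mutated in the Sen1ΔN label only. LYS2 gave 11.91 and 12.62 in the wild type and 10.86 and 10.81 in Sen1ΔN. ADE2 overlapped between the strains, at 11.99 and 12.04 in the wild type and 12.25 and 12.01 in Sen1ΔN. TRP1 had no probe set with 1 annotated gene. In control transcripts probed at both ends, the 3′ minus 5′ signal was larger in Sen1ΔN in 6 of the 6 yeast controls with a 5′ signal above background on every array, by a median of 2.38 log2 (range 1.24 to 4.03). This sign of RNA or label length moved with strain in every comparison below, and its part in the results was not tested.

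The comparison asked how basal expression of the sterol and fatty acid genes differs between these strains. Sterol genes moved in both directions, and the 3 of 7 fatty acid genes that passed the test were lower. The HMG-CoA reductase gene HMG1, the scaffold gene ERG28 and both sterol transcription factor genes were higher in Sen1ΔN. The second reductase gene HMG2, the farnesyl diphosphate synthase gene ERG20, the squalene synthase gene ERG9 and both fatty acid synthase genes were lower. In limma with Benjamini-Hochberg adjustment over 5449 genes, 9 of the 34 rose and 10 fell at an adjusted p under 0.05. This is 55.9% of the 34, against 69.7% of all yeast genes, of which 35.3% rose and 34.4% fell. A called change of at least 2-fold was seen in 2 rises and 1 fall among the 34, against 8.63% and 11.3% of all genes. The median absolute difference was 0.27 log2 for the 34 and 0.46 for all genes, and the signed medians were -0.043 and 0.014. The 2 arrays of each strain lay wholly above those of the other in 14 of the 34 genes with Sen1ΔN higher and in 16 with the wild type higher, against 44.3% and 42.9% of all genes. Replicates were close, with a median gap between the 2 arrays of 0.045 log2 in the wild type and 0.080 in Sen1ΔN over the 34 genes. With 2 arrays in each strain the smallest p of an exact permutation test is 0.33, and the limma p-values owe their size to a variance pooled over genes.

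**Figure D1:**
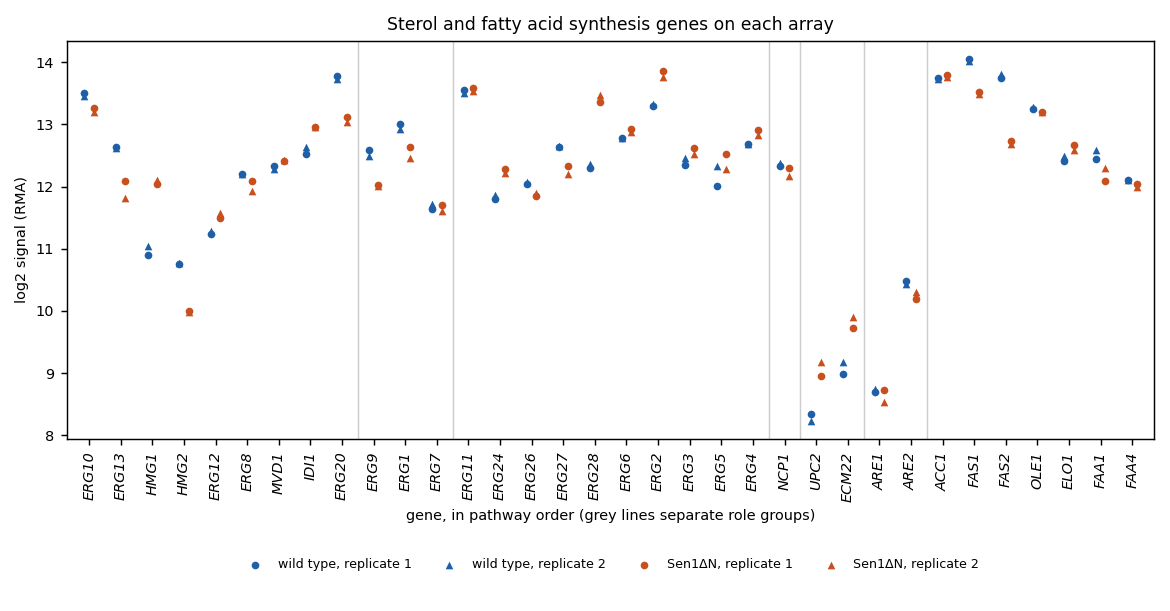
The log2 signal of each of the 34 genes on each array, with genes in pathway order on the x axis. Blue stands for the wild type and orange for Sen1ΔN, circles for replicate 1 and triangles for replicate 2. Signals of different genes come from different probes and are not to be compared with each other. The colours stand well apart at HMG1, HMG2, ERG28 and FAS2 and overlap at ERG7, ERG11, ERG5 and ARE1.

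The first stage leads from acetyl-CoA through mevalonate to farnesyl diphosphate, the branch point for sterols, dolichols, ubiquinone and prenyl groups. Of its 9 genes, 3 rose, 4 fell and 2 did not pass, while 35.3% of all yeast genes rose and 34.4% fell. HMG1 and HMG2 encode the isozymes of HMG-CoA reductase, the main control point of the pathway, and they moved in opposite directions. HMG1 gave log2 signals of 10.90 and 11.04 in the wild type and 12.05 and 12.10 in Sen1ΔN. Its arrays did not overlap, and with 2 arrays per strain it rose by 1.10 log2 (SE 0.08, limma adjusted p = 0.000406), which is 2.14-fold. HMG2 gave 10.76 and 10.78 in the wild type and 10.00 and 9.99 in Sen1ΔN. It fell by 0.77 (SE 0.06, limma adjusted p = 0.000536), with replicates of each strain within 0.02 of each other. HMG1 had the largest rise among the 34 genes, and 92.9% of all yeast genes had a lower or equal signed difference.

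Upstream of the reductases, ERG13, the gene of HMG-CoA synthase, gave 12.64 and 12.63 in the wild type and 12.10 and 11.81 in Sen1ΔN. It fell by 0.68 (SE 0.11, limma adjusted p = 0.00485), and the gap of 0.29 between its Sen1ΔN arrays was the widest among the 34 genes for that strain. It did not pass in the unmoderated linear model (adjusted p = 0.0752). The thiolase gene ERG10, which makes the first condensation, fell by 0.26 (SE 0.07, limma adjusted p = 0.0222). This difference was -0.042 with the trend on gene length removed and -0.10 after quantile normalization of the yeast genes, and it passed in neither. The call was also lost without wild type replicate 1 (adjusted p = 0.148), without wild type replicate 2 (adjusted p = 0.102) and without Sen1ΔN replicate 2 (adjusted p = 0.0527).

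Between mevalonate and the isoprenoid diphosphates 2 of 4 genes rose, against 35.3% of all genes. The mevalonate kinase gene ERG12 rose by 0.29 (SE 0.07, limma adjusted p = 0.0173), and IDI1, the gene of isopentenyl diphosphate isomerase, rose by 0.38 (SE 0.07, limma adjusted p = 0.00898). ERG8, the phosphomevalonate kinase gene, and MVD1, the mevalonate diphosphate decarboxylase gene, differed by -0.19 (95% interval -0.40 to 0.016) and 0.11 (-0.053 to 0.28) and did not pass. MVD1 passed as a rise after quantile normalization (0.27, adjusted p = 0.0184) and with the length trend removed (0.33, adjusted p = 0.00857). The call of ERG12 was lost without wild type replicate 1 (adjusted p = 0.121) and without replicate 2 (adjusted p = 0.0809), and that of IDI1 without wild type replicate 1 (adjusted p = 0.0719). At the end of the stage, ERG20, the farnesyl diphosphate synthase gene, gave 13.78 and 13.73 in the wild type and 13.12 and 13.04 in Sen1ΔN. It fell by 0.68 (SE 0.07, limma adjusted p = 0.00104), with no overlap between the strains.

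The next 3 enzymes commit farnesyl diphosphate to sterols. ERG9, the gene of squalene synthase, gave 12.59 and 12.50 in the wild type and 12.03 and 12.00 in Sen1ΔN, and fell by 0.53 (SE 0.07, limma adjusted p = 0.00227). ERG1, the gene of squalene epoxidase, an oxygen-using step, gave 13.00 and 12.93 in the wild type and 12.63 and 12.46 in Sen1ΔN, and fell by 0.42 (SE 0.09, limma adjusted p = 0.0102). The arrays of both genes separated by strain. ERG7, the lanosterol synthase gene, overlapped between the strains, with a difference of -0.024 (95% interval -0.22 to 0.17). The call of ERG1 was lost with the length trend removed (-0.25, adjusted p = 0.0548) and without wild type replicate 1 (-0.39, adjusted p = 0.0629).

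From lanosterol to ergosterol, 4 of 10 genes rose, 1 fell and 5 did not pass. Over all yeast genes 35.3% rose and 34.4% fell. The median of these 10 differences was 0.18 log2, against -0.22 over the 12 genes before lanosterol, of which 3 rose and 6 fell. With the length trend removed these medians were 0.38 (6 rose and 0 fell) and -0.016 (4 rose and 4 fell), and after quantile normalization 0.34 (7 rose and 1 fell) and -0.073 (4 rose and 5 fell). The contrast between the stages is a description, with no test. ERG11, the P450 lanosterol demethylase that azole antifungals block, gave 13.55 and 13.50 in the wild type and 13.58 and 13.54 in Sen1ΔN. Its difference was 0.032 (95% interval -0.14 to 0.20) and its arrays overlapped. ERG24, the reductase gene that follows it, gave 11.81 and 11.87 in the wild type and 12.29 and 12.21 in Sen1ΔN, and rose by 0.41 (SE 0.07, limma adjusted p = 0.00525).

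Erg25, Erg26 and Erg27 remove a pair of methyl groups from the sterol, and Erg28 holds them together at the membrane. ERG28 gave 12.30 and 12.37 in the wild type and 13.36 and 13.47 in Sen1ΔN, clear of each other. It rose by 1.08 (SE 0.08, limma adjusted p = 0.00037), or 2.12-fold. Of the enzymes in this group, ERG27 fell by 0.37 (SE 0.08, limma adjusted p = 0.0102), and ERG26 differed by -0.19 (adjusted p = 0.0523) with non-overlapping arrays. ERG25, which is not among the 34 and was singled out after its value was seen, fell by 0.22 (SE 0.07, limma adjusted p = 0.0336). ERG28 is the shortest of the 34 genes at 447 bp, and its rise was 0.78 with the length trend removed. The fall of ERG27 was 0.17 in that setting and did not pass (adjusted p = 0.101), nor did it pass without wild type replicate 1 (adjusted p = 0.0579) or without wild type replicate 2 (adjusted p = 0.0659).

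The last steps shape the side chain and ring of the sterol. ERG2, the sterol isomerase gene, gave 13.31 and 13.33 in the wild type and 13.86 and 13.77 in Sen1ΔN, and rose by 0.50 (SE 0.07, limma adjusted p = 0.00296). The methyltransferase gene ERG6, the desaturase gene ERG3 and the P450 desaturase gene ERG5 differed by 0.12, 0.17 and 0.23 and did not pass. After quantile normalization the 3 genes passed as rises, of 0.29 for ERG6, 0.34 for ERG3 and 0.39 for ERG5 (adjusted p = 0.0133, 0.0101 and 0.0442). With the length trend removed, ERG6 (adjusted p = 0.00814) and ERG3 (adjusted p = 0.0105) passed as well. For ERG5 the wild-type arrays were 0.32 apart, at 12.01 and 12.33, the widest wild-type gap among the 34. ERG4, the gene of the final reductase, rose by 0.20 (SE 0.07) at an adjusted p of 0.0498 in limma, next to the threshold, and lost the call without either wild-type array (adjusted p = 0.211 and 0.213), without Sen1ΔN replicate 1 (adjusted p = 0.121) and with the replicate number as a block (adjusted p = 0.0832). NCP1, the reductase that passes electrons to the P450 steps, differed by -0.13 (95% interval -0.33 to 0.073).

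**Figure D2:**
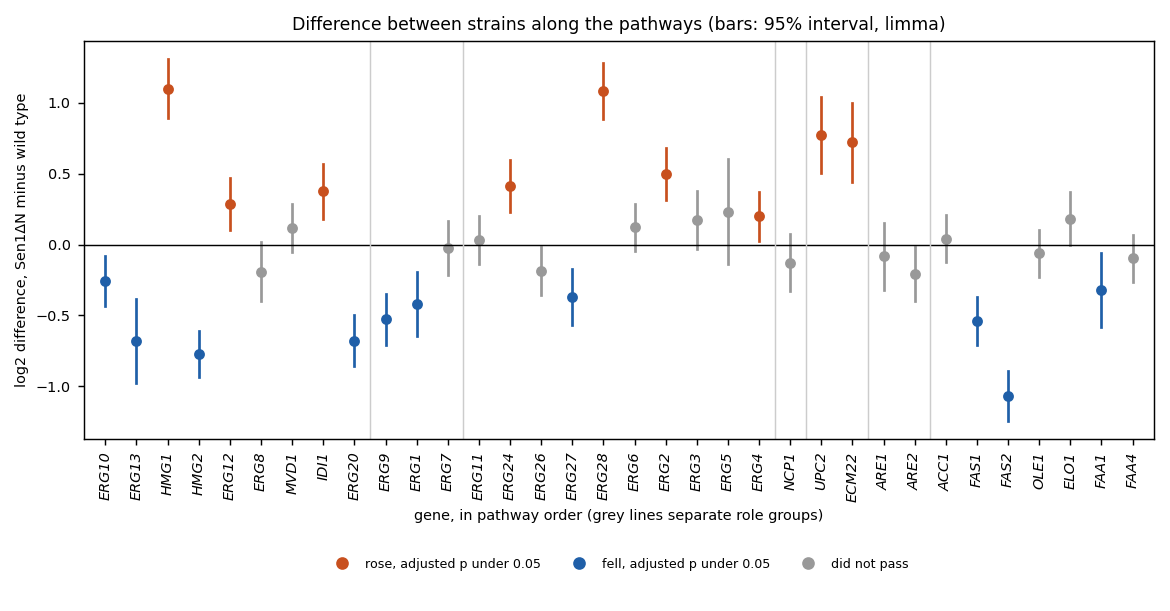
The log2 difference (Sen1ΔN minus wild type) of each of the 34 genes in pathway order, with its 95% interval from limma. Orange points rose and blue points fell at an adjusted p under 0.05, and grey points did not pass. The highest points are HMG1 at 1.10 and ERG28 at 1.08, and the lowest is FAS2 at -1.07.

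Upc2 and Ecm22 are paralogous zinc-cluster factors that activate sterol synthesis genes. Both genes were higher in Sen1ΔN. UPC2 gave 8.34 and 8.23 in the wild type and 8.95 and 9.17 in Sen1ΔN, and rose by 0.77 (SE 0.10, limma adjusted p = 0.0023). ECM22 gave 8.99 and 9.19 in the wild type and 9.72 and 9.90 in Sen1ΔN, and rose by 0.72 (SE 0.11, limma adjusted p = 0.00331). Neither overlapped between strains. Both calls were lost in the unmoderated linear model (adjusted p = 0.0532 and 0.0627), in which 44.9% of all genes were called.

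ARE1 and ARE2 encode the acyltransferases that store sterols as esters. ARE1 overlapped between the strains, at 8.69 and 8.74 in the wild type and 8.73 and 8.53 in Sen1ΔN. ARE2 lay lower on both Sen1ΔN arrays, at 10.20 and 10.30 against 10.48 and 10.44, with a difference of -0.21 (95% interval -0.40 to -0.017) that did not pass after adjustment (adjusted p = 0.0537).

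Among the 7 fatty acid genes, 3 fell and none rose at the threshold, against 34.4% and 35.3% of all genes. After quantile normalization 2 fell and 1 rose, and with the length trend removed again 2 fell and 1 rose. FAS2 encodes the subunit of fatty acid synthase that carries the acyl carrier domain, and FAS1 encodes its partner subunit. FAS2 gave 13.75 and 13.81 in the wild type and 12.74 and 12.69 in Sen1ΔN, and it had the largest fall of the 34, by 1.07 log2 (SE 0.07, limma adjusted p = 0.000289). FAS1 gave 14.06 and 14.03 in the wild type and 13.52 and 13.48 in Sen1ΔN, and fell by 0.54 (SE 0.06, limma adjusted p = 0.00168). The arrays of both genes separated by strain. With the length trend removed the differences were -1.06 for FAS2 and -0.54 for FAS1, on gene lengths of 5664 and 6156 bp.

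ACC1, which encodes acetyl-CoA carboxylase, the enzyme that feeds the synthase, gave 13.75 and 13.73 in the wild type and 13.79 and 13.77 in Sen1ΔN. Its difference was 0.039 (95% interval -0.13 to 0.21). OLE1, the gene of the fatty acid desaturase, gave 13.24 and 13.28 in the wild type and 13.19 and 13.20 in Sen1ΔN, a difference of -0.062 (95% interval -0.23 to 0.10). Neither passed the test. The elongase gene ELO1 differed by 0.18 and the acyl-CoA synthetase gene FAA4 by -0.098, without passing. ELO1 passed as a rise after quantile normalization (0.34, adjusted p = 0.00691), with the length trend removed (0.35, adjusted p = 0.00991) and with trended and robust eBayes (adjusted p = 0.0363). FAA1, the second acyl-CoA synthetase gene, fell by 0.32 (SE 0.10, limma adjusted p = 0.0366). It lost the call under 6 of the 12 alternatives, among them both settings without a wild-type array (adjusted p = 0.0697 and 0.178), the setting without Sen1ΔN replicate 1 (adjusted p = 0.0825) and quantile normalization (-0.16, adjusted p = 0.224).

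The split between rises and falls depended on scaling. After quantile normalization of the yeast genes, 14 of the 34 rose and 8 fell, against 37.7% and 32.9% of all genes. With the length trend removed, 13 rose and 6 fell, against 37.3% and 31.7%. These settings moved the 34 differences by a median of 0.14 and 0.15 log2, upward in 33 and 30 genes, while the median shift over all yeast genes was 0.018 and 0.086. The calls of 9 genes held in all 12 alternatives: HMG1, ERG28, ERG2 and ERG24 higher, and HMG2, ERG20, ERG9, FAS1 and FAS2 lower. The unmoderated linear model ended the calls of 9 genes (ERG1, ERG4, ERG12, ERG13, ERG27, IDI1, UPC2, ECM22 and FAA1). It called 44.9% of all yeast genes, against 69.7% in the main fit. In contrast, 7 genes, among them ERG11, ACC1 and OLE1, passed in none of the settings run. How many of all yeast genes passed in every setting, or in none, was not counted. These counts therefore describe the 34 genes and show nothing particular to them.

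**Figure D3:**
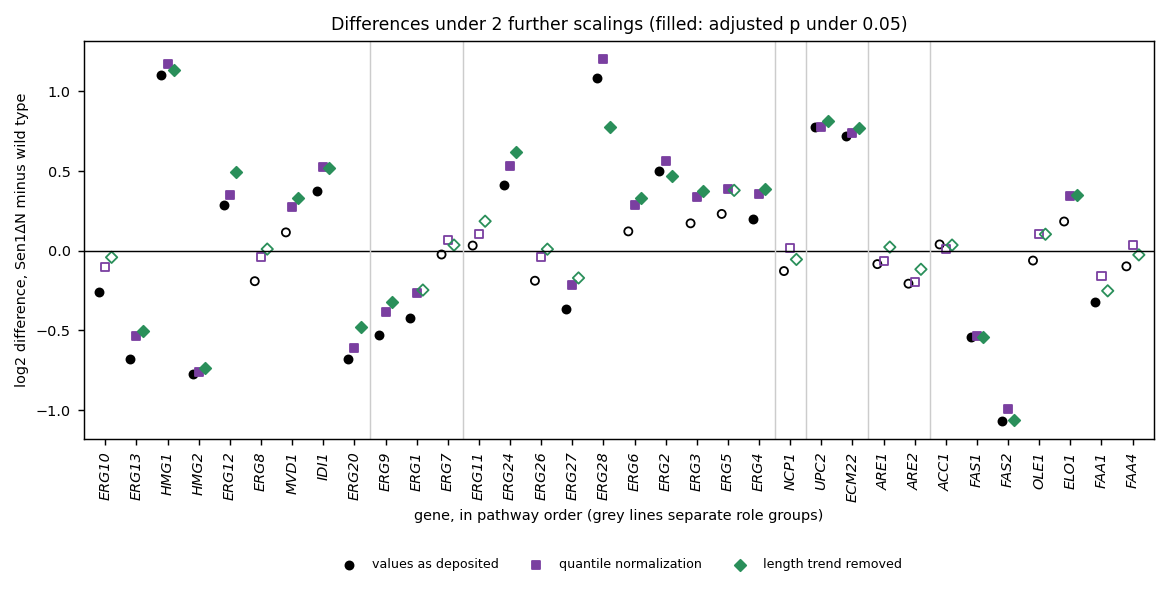
The log2 difference (Sen1ΔN minus wild type) of each of the 34 genes for the deposited values (black circles), after quantile normalization of the yeast genes (purple squares) and with the trend on gene length removed (green diamonds). Filled symbols passed an adjusted p of 0.05. HMG1, HMG2, FAS1 and FAS2 hardly move between settings, whereas ERG28 goes from 1.08 to 0.78 with the length trend removed.

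Around the 34 genes, 85 other measured genes of sterol and fatty acid metabolism were examined in 11 lists. Of these 85 genes, 24 rose and 44 fell, against 35.3% and 34.4% of all genes, with a median of -0.24 log2. Together this is 80.0% called, against 69.7% of all genes. A fall of at least 2-fold was called in 16 of them and such a rise in 3, against 11.3% and 8.63% of all genes. The list of HMG-CoA reductase turnover joins genes whose products hold the Hmg2 protein, genes of its degradation, and SPF1. Its genes, which do not share 1 function, fell in 6 of 6 cases with a median of -0.82. HRD3, a subunit of the ubiquitin ligase that degrades Hmg2, gave 10.34 and 10.28 in the wild type and 8.32 and 8.46 in Sen1ΔN, and fell by 1.92 (SE 0.08, limma adjusted p = 0.000127). SPF1, an endoplasmic reticulum ATPase gene, fell by 1.10 (SE 0.11). HRD1, the catalytic subunit of the same ligase, was added after its value was seen and fell by 1.04 (SE 0.06).

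Of 7 genes of oxygen response and haem synthesis, 5 fell and 2 rose, with a median of -1.04. Over all genes 34.4% fell and 35.3% rose. HEM15, the ferrochelatase gene, gave 12.51 and 12.54 in the wild type and 9.88 and 9.95 in Sen1ΔN and fell by 2.61 (SE 0.07). HEM13, a haem synthesis gene that is induced without oxygen, fell by 1.42 (SE 0.12). In the list of sterol uptake and hypoxic mannoprotein genes, many of them targets of Upc2, 5 of 12 rose and 3 fell. TIR4 rose by 0.99 (SE 0.08), while TIR2 fell by 1.92 (SE 0.12), and DAN1 lay at background on all arrays. PAU23 and PAU24, listed there under their older names DAN2 and DAN3, belong to a family of near-identical genes, so their signals are uncertain.

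Further sterol genes moved both ways, in lists to be read against the 35.3% of all genes that rose and the 34.4% that fell. ERG29, a further sterol synthesis gene, rose by 1.21 (SE 0.07) and MCR1, an electron-transfer reductase gene, fell by 1.15 (SE 0.07), in a list with 2 rises and 3 falls among 6. In ester hydrolysis, acetylation and transport, 4 of 14 rose and 4 fell. YEH1, a steryl ester hydrolase gene, gave 9.60 and 9.63 in the wild type and 11.12 and 11.16 in Sen1ΔN, and rose by 1.53 (SE 0.06, limma adjusted p = 0.000132). NCR1, a vacuolar membrane sterol protein, fell by 0.97 (SE 0.10). Of the 10 genes that use isoprenoid diphosphates for other products, 7 fell and 3 rose. MOD5, a tRNA isopentenyl transferase gene whose product draws on the pathway before farnesyl diphosphate, fell by 2.15 (SE 0.08), and NUS1, of dolichol synthesis, fell by 1.68 (SE 0.09).

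Fatty acid genes outside the 34 also moved both ways. Their counts by list stand beside the 35.3% of all genes that rose and the 34.4% that fell. In the list named acetyl-CoA supply 4 of 5 fell. Among these 4 was BPL1, whose product attaches biotin to Acc1 and does not itself make acetyl-CoA. BPL1 gave 11.09 and 11.01 in the wild type and 9.48 and 9.39 in Sen1ΔN and fell by 1.61 (SE 0.07, limma adjusted p = 0.00015). ACS2, the acetyl-CoA synthetase gene used on glucose, fell by 0.87 (SE 0.12). Very long chain elongation and hydroxylation genes fell in 6 of 7 cases with a median of -0.45. The sphingolipid hydroxylase gene SUR2 fell by 1.51 (SE 0.08). SCS7, a second gene of this kind, fell by 1.003 (SE 0.09).

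The list of OLE1 regulators held 1 rise and 1 fall among 4, against 35.3% and 34.4% of all genes. UBX2, whose product helps process the membrane-bound activators of OLE1, gave 10.58 and 10.51 in the wild type and 7.60 and 7.77 in Sen1ΔN, and fell by 2.86 (SE 0.09, limma adjusted p = 7.22e-05). SPT23, one of those activators, rose by 0.29 (SE 0.06). In mitochondrial fatty acid synthesis 4 of 8 genes rose and 3 fell, with CEM1, a ketoacyl synthase gene, up by 1.59 (SE 0.09) and PPT2 up by 0.95 (SE 0.08). In fatty acid activation, binding and transport 3 of 6 rose and 2 fell. PXA2, a subunit of the peroxisomal fatty acid importer, rose by 0.93 (SE 0.08), and ACB1, the acyl-CoA binding protein gene, fell by 0.91 (SE 0.10). No list was tested as a set, so these counts describe the lists and show nothing particular to them.

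**Figure D4:**
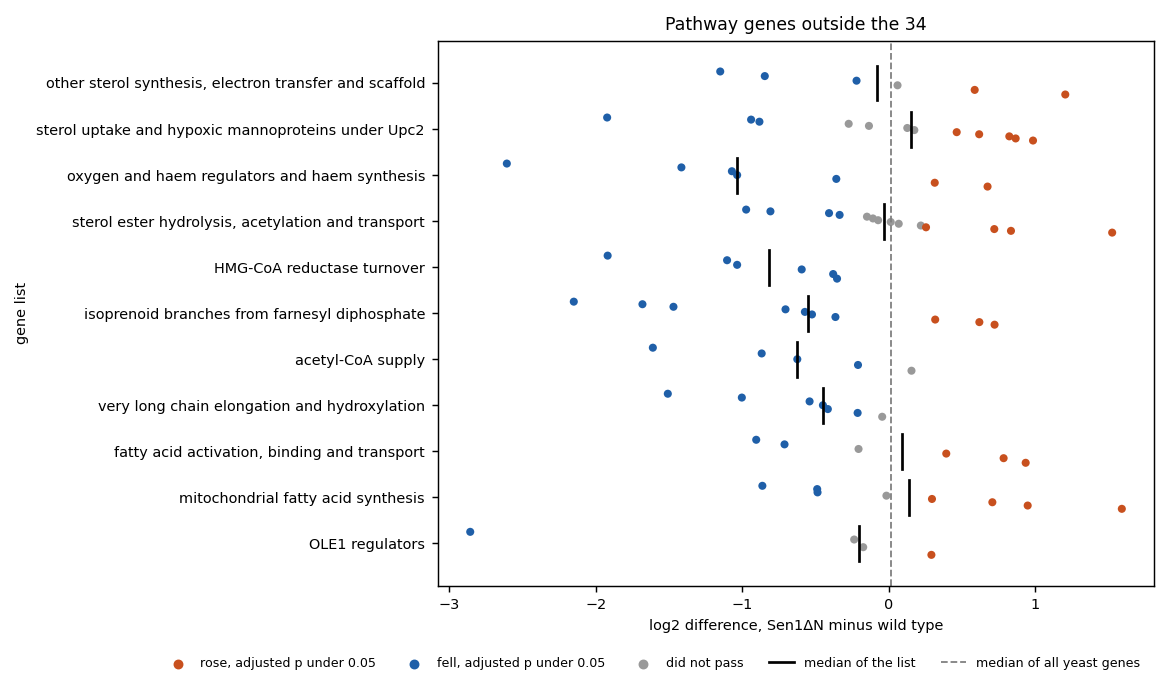
The log2 difference (Sen1ΔN minus wild type) of 85 sterol and fatty acid genes outside the 34, by list. Each point is 1 gene, coloured orange where it rose, blue where it fell and grey where it did not pass. The black bar is the list's median and the dashed line the median of all yeast genes at 0.014. All 6 points of HMG-CoA reductase turnover lie left of that line, and the lowest point of all is UBX2 at -2.86.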

How the data were processed

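The submitters deposited log2 signals made with RMA in Affymetrix Expression Console, as their processing notes list, with 1 value for each probe set on each array. RMA gives all arrays a common distribution, which hides a change in total mRNA per cell. Labelling started from 6 ug of total RNA, per the labels' protocols. Sample titles gave the strain and the replicate number. Of 10928 probe sets, 5498 had 1 annotated S. cerevisiae gene, and averaging the probe sets of a gene gave 5449 genes. The 95th percentile of the 1746 S. pombe probe sets on each array (5.23 to 5.36 log2) was taken as the background level, and the median over the yeast genes was 10.51 to 10.53. The number of arrays limits the precision.

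Sen1ΔN minus wild type was fitted with limma 3.58.1 (lmFit, eBayes) in R 4.3.3, two-sided, on 2 residual degrees of freedom, with Benjamini-Hochberg adjustment over all genes. The test was tried on simulated data with 200 of 5449 genes changed and the same spread in both strains. There it recovered 67.4% of changes of 0.5 log2 and 97.6% of changes of 1 log2, with 5.01% of calls false. On the real arrays 69.7% of genes were called, so these rates need not hold for them. The limma p-values reflect the variation between the 2 cultures grown of each strain. The members and lists were chosen with earlier results of these data known. Of the lists outside the 34 genes, the rule named per list the 2 called genes with the largest difference whose arrays separate by strain. COD1 was left out of its list because it is an older name of both SPF1, already listed, and another gene. A planned motif search in promoters was not run, since no promoter sequence was used here. Alternatives were quantile normalization, median centring, a filter on dim genes (kept if above background on at least 2 arrays), a trended and robust eBayes prior, the brightest probe set, an unmoderated linear model, a replicate block, leaving out each array, and subtracting a loess fit (span 0.5, degree 1) of the difference against gene length.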

Additional observations from a re-analysis of the deposited data

Results flagged for a closer look

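The control probe sets, which enter no gene comparison, showed a larger 3′ minus 5′ signal in Sen1ΔN than in the wild type, by a median of 2.38 log2 over 6 yeast controls. For ACT1 the 3′ minus 5′ signal was 0.25 and 0.24 in the wild type and 2.48 and 3.46 in Sen1ΔN. Its part in the sterol and fatty acid results was not tested.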

How the results depend on the processing

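Median centring, the filter on dim genes, the brightest probe set and eBayes with trend and robust moderation kept the number of called members within 1.5 times the main count of 19 and reversed none of the 34. The unmoderated linear model called 2445 genes (1209 rose and 1236 fell), among them 11 members (5 rose and 6 fell). Of the 85 listed genes outside the 34 it called 47, with 13 rises and 34 falls. Quantile normalization gave 14 rises among the members and a median of 0.051 log2 over them, and turned the uncalled differences of ERG7 (0.066), NCP1 (0.016), OLE1 (0.11) and FAA4 (0.037). Removing the length trend gave 6 falls and a median of 0.035, and turned the uncalled ERG8 (0.010), ERG7 (0.035), ERG26 (0.0094), ARE1 (0.023) and OLE1 (0.10). Leaving out 1 array, with the lone array assumed to vary like the other strain's, gave 12 to 19 called members, 6 to 10 falls and a member median of -0.070 to 0.021. The lowest count, 12, came without wild type replicate 1. With either wild-type array left out, fewer of all yeast genes were called than in the main fit. The drop in calls there was therefore not confined to the 34 genes. Over all settings with 1 array left out, ERG7 ran from -0.073 to 0.025 and ARE1 from -0.18 to 0.016, both uncalled. With the replicate number as a block, 18 members (8 rose and 10 fell) and 3471 of all genes were called, and ERG4 lost its call. The deviations of same-numbered arrays correlated at r = -0.034 across genes. The labels tie no numbers to a shared day, so whether same-numbered arrays were processed together is not known. The cause of these shifts was not tested.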
